A study of Mus musculus with 17 samples.

Results

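The comparison set 2 inhibitors of the kinase MEK, UO126 and PD98059, against each other in NIH 3T3, a fibroblast line from mouse embryos. It used 4 of the 17 arrays of the series, taken from the 6 arrays of its MEK experiment. One pair held UO126 at 10 µM and PD98059 at 7.5 µM without PDGF, a growth factor for fibroblasts, and the other pair held the same inhibitors with PDGF at 25 ng/ml. The remaining 2 arrays of that experiment were an untreated array and an array with PDGF alone. Each condition had 1 array. The MEK experiment shared its table of 9 arrays with a repeat of a Src experiment (a vehicle array, an array with PDGF, and one with PDGF plus the Src family inhibitor SU6656 at 2 µM), and a separate table of 8 arrays held the Src experiment with a further pair of UO126 arrays at 10 µM. The doses of the inhibitors differed, so compound and dose cannot be told apart. The control of the MEK experiment was labelled untreated, and for its inhibitor arrays the labels used here name no solvent and no PDGF time. In the other experiments PDGF was applied for 1 h. The labels do not tie the arrays to separate cultures, so errors and p-values measure the spread between these arrays, which may be technical.

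MEK1 and MEK2 are the kinases that phosphorylate and activate ERK1 and ERK2, downstream of Ras and Raf. In fibroblasts PDGF switches this cascade on, and ERK then raises immediate early genes such as Fos and Egr1 and genes that feed back on the cascade, among them the ERK phosphatase Dusp6. Both compounds bind MEK away from its ATP site and are not built alike: PD98059 is a flavone and UO126 a diaminodicyano-butadiene with sulphur-linked rings. Both are also known to bind the aryl hydrocarbon receptor (AhR), a sensor of foreign aromatic compounds, and to act on MEK5, the activator of ERK5.

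Arrays of the 2 inhibitors in the same PDGF state were the most alike of the experiment. Spearman's rho over 8695 probe sets was 0.975 between UO126 and PD98059 and 0.970 with PDGF, the highest 2 values among the 15 pairs of arrays. At least 2-fold differences were seen for 210 of 6366 genes without PDGF, of which 93 (1.46%) were higher and 117 (1.84%) lower with UO126. With PDGF there were 221 such genes, 124 (1.95%) higher and 97 (1.52%) lower, and without quantile normalisation the split was 90 higher and 140 lower. Against the untreated array UO126 gave 276 genes at that fold, 161 higher (2.53%) and 115 lower (1.81%), and PD98059 gave 247, 144 higher (2.26%) and 103 lower (1.62%). Against the PDGF array the counts were 286 with UO126, 150 higher (2.36%) and 136 lower (2.14%), and 291 with PD98059, 157 higher (2.47%) and 134 lower (2.1%). The median signal of the 4 inhibitor arrays was 133.7 to 145.0 units, and the ratio of the 3′ to the 5′ probe set of Gapdh, a sign of RNA quality, was 0.788 to 0.902 on them and 1.13 on the untreated array. The same ratio for beta-actin was 1.34 and 1.37 on the UO126 arrays, without and with PDGF, and 1.19 and 1.21 on the PD98059 arrays, so it was higher with UO126 in both pairs; its part in the differences below was not tested.

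Across all genes no difference between the inhibitors passed the test. The fit with limma on 9 arrays called 0 of 8695 probe sets (0%) at an adjusted p under 0.05, and 460 (5.29%) had an unadjusted p under 0.05, 224 of them higher (2.58%) and 236 lower (2.71%) with UO126. Every value below is a log2 difference of UO126 minus PD98059 from that fit with its standard error (SE), the mean of the pairs without and with PDGF, unless a single pair is named. The 95% interval of a difference reached 0.51 to either side at the median, 0.41 for the brighter and 0.71 for the dimmer probe sets, so differences below about that size could not be told from 0. The spread in this fit has 2 residual degrees of freedom, pooled by limma over probe sets. It comes from the disagreement of the 2 pairs, and from that of the PDGF response between the MEK experiment and the repeat, which held no MEK inhibitor. An SE can thus be wide where the 2 pairs are alike. A difference called higher or lower below is a description of these arrays.

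The 2 pairs, which share no array, agreed little for dim genes and more for bright ones. Across 6366 genes their differences had Pearson's r 0.066 and Spearman's rho 0.118, where genes are not independent replicates, and r was 0.028 in the dimmest tertile of genes, 0.082 in the middle one and 0.224 in the brightest. At least 1.5-fold differences in the same direction in both pairs were found for 50 genes higher (0.785%) and 61 lower (0.958%) with UO126, together 1.74%, and opposite directions for 90 genes (1.41%). At 2-fold there were 23 (0.361%). Without quantile normalisation the first counts were 45 and 85. Of the 111 genes, 103 lay below the median signal of all genes, and the median signal of the 111 was 72.2 units against 413 over all genes. In the brightest tertile 5 genes were higher and 2 lower in both pairs at 1.5-fold, and 3 had opposite directions. In the middle tertile these counts were 4, 7 and 8. The 8 genes above the median, out of 3183, were Dusp1, Ier3, Ptgs2, Pdia3 and Trappc3, higher with UO126, and Mcl1, Mgp and Dvl2, lower with UO126. This group of 8 was looked at after its values were seen.

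**Figure D1:**
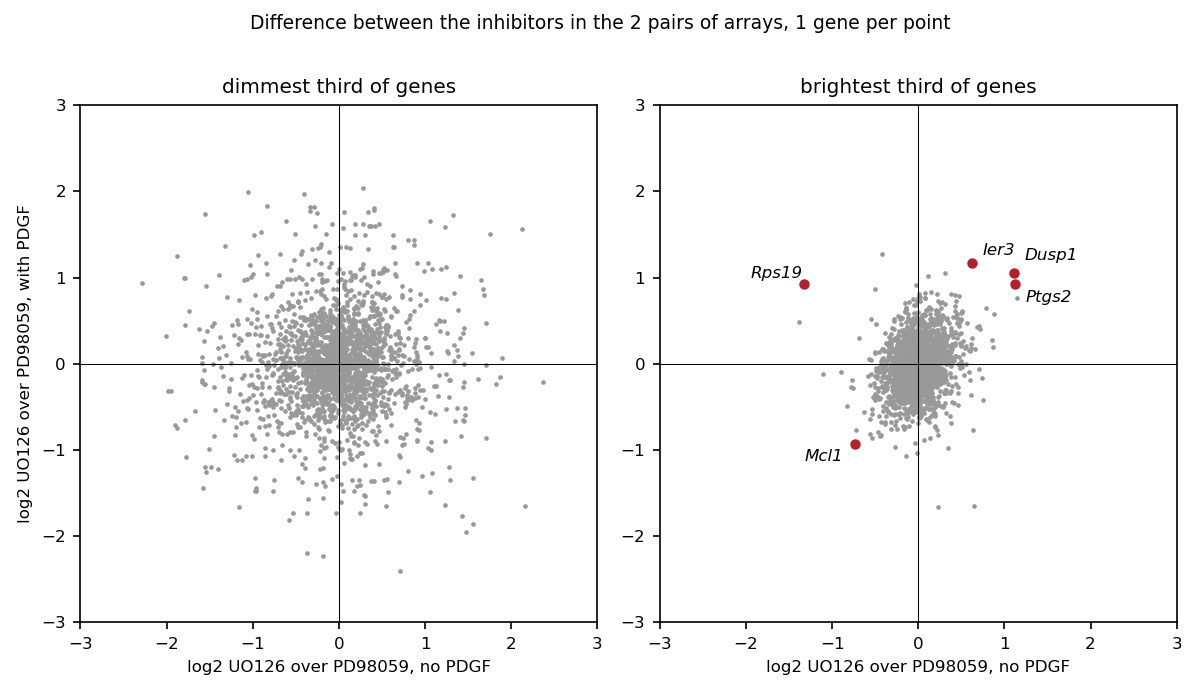
Log2 difference of UO126 over PD98059 without PDGF (x axis) and with PDGF (y axis), 1 point per gene, for the dimmest and the brightest tertile of 6366 genes. Points spread around 0 in the dimmest tertile (r 0.028), and in the brightest (r 0.224) Dusp1, Ptgs2 and Ier3 lie at the upper right, Mcl1 at the lower left and Rps19 at the upper left.

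Dusp1, Ptgs2 and Ier3 stood about 2-fold higher with UO126 than with PD98059. Dusp1 encodes a phosphatase that switches off MAP kinases. Its signal was 1001.6 with UO126 and 464 with PD98059 without PDGF, and 2161.3 and 1000.4 with PDGF. The UO126 arrays lay near their controls, 860.4 untreated and 2000.1 with PDGF, and the PD98059 arrays lay below them in both states. The difference was 1.09 (SE 0.180, interval 0.68 to 1.49, adjusted p = 0.480 with limma), 1.11 without and 1.06 with PDGF.

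Ptgs2, the inducible cyclooxygenase that starts prostaglandin synthesis, had signals of 397.3 with UO126 and 175.7 with PD98059 without PDGF, and of 3137.3 and 1578.8 with PDGF. Beside 189.9 untreated and 3169.3 with PDGF, the array with UO126 alone stood above its control and the array with PDGF and PD98059 stood below its own. The difference was 1.03 (SE 0.175, adjusted p = 0.480 with limma). For Ier3, an early gene tied to ERK signalling and cell survival, the signals were 298.2 and 191.1 without PDGF, and 3708.4 and 1599.4 with PDGF, where PDGF alone gave 3739.7. Its difference was 0.90 (SE 0.182, adjusted p = 0.833 with limma), 0.63 without and 1.16 with PDGF.

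In the Src experiment, which had UO126 but no PD98059, the same genes were measured on another array design. Ptgs2 had 246.6 with vehicle and 360.8 with UO126, and 3501.4 with PDGF and 5147.7 with PDGF and UO126. Ier3 had 311.3 and 447.9, and 1442.7 and 3199.4 with PDGF. Both genes were thus higher with UO126 than in the matching control in both PDGF states there. With PDGF this differs from the MEK experiment, where UO126 over its control was −0.03 for each gene. In the Src experiment it was 0.52 for Ptgs2 and 1.07 for Ier3. Dusp1 was lower with UO126 without PDGF (327.6 against 585) and near its control with PDGF (1527.1 against 1406).

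Mcl1, a short-lived survival protein of the Bcl-2 family, went the other way and was singled out after its values were seen. Its signal was 476.9 with UO126 and 831.2 with PD98059, and 552.9 and 1088.9 with PDGF. Here the PD98059 arrays lay near their controls (742.7 untreated, 1034.2 with PDGF) and the UO126 arrays below them. The difference was −0.84 (SE 0.172, interval −1.22 to −0.45, adjusted p = 0.833 with limma), −0.73 without and −0.94 with PDGF. In the Src experiment Mcl1 was also lower with UO126, at 1218.5 against 2003.2 with vehicle and 2434.7 against 4101.6 with PDGF. Mgp, an inhibitor of matrix calcification, gave −0.74 (SE 0.192), with 397.9 against 700.5 and, with PDGF, 509.7 against 895.4. Mgp in the Src experiment was not lower with UO126 without PDGF (1234.9 against 1138.6 with vehicle) and was lower with PDGF (1249.7 against 1442.3). Dvl2, an adaptor of Wnt signalling, gave −0.75 (SE 0.215), and in the Src experiment it had 409.9 with UO126 against 444.4 and, with PDGF, 418.2 against 247.5.

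The other bright genes on the UO126 side were Pdia3 and Trappc3. Pdia3, a disulphide isomerase of the endoplasmic reticulum, had 1188.4 with UO126 and 532.5 with PD98059, and 1424.3 and 816.3 with PDGF, beside 378.2 untreated and 953.4 with PDGF alone. Its difference of 0.95 had an SE of 0.333, the widest of the 8 genes, and its pairs gave 1.15 without and 0.76 with PDGF. Its PDGF response was 1.28 in the MEK experiment and −0.51 in the repeat, a disagreement that enters the SE. In the Src experiment the signal of Pdia3 lay near its control with UO126 (5591.8 against 5466.5) and below it with PDGF (4692.6 against 5938.6). Trappc3, a subunit of a vesicle tethering complex, had 1134.9 and 654.8, and 1187.3 and 744.4 with PDGF, beside 957.8 and 1244.4, a difference of 0.72 (SE 0.185). For Trappc3, as for Dusp1, the PD98059 arrays were the ones away from the controls, and in the Src experiment UO126 over control was 0.14 without and −0.05 with PDGF for Trappc3.

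The promoters of these 4 genes are shown because the genes had the smallest p-values of those 8, 3 in one direction and Mcl1 in the other. Each line holds the 250 bases before the RefSeq start in GRCm38.p6, 5′ to 3′ on the strand of the gene. Capitals mark matches, on either strand, to the core of the xenobiotic response element bound by AhR (TNGCGTG) and to the core of the cAMP response element (TGACGT), the latter chosen after the values were seen.
Dusp1, chr17:26508473-26508722, minus strand: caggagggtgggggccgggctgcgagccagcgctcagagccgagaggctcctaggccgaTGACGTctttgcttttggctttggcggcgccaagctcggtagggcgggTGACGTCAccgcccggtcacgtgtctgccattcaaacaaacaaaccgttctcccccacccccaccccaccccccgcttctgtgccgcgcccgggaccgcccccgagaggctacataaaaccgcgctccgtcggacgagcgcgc
Ptgs2, chr1:150099781-150100030, plus strand: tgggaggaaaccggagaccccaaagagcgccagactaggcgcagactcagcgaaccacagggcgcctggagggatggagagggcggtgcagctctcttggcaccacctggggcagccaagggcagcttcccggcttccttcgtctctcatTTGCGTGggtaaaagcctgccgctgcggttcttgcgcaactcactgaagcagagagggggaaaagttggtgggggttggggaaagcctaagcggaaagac
Ier3, chr17:35821463-35821712, plus strand: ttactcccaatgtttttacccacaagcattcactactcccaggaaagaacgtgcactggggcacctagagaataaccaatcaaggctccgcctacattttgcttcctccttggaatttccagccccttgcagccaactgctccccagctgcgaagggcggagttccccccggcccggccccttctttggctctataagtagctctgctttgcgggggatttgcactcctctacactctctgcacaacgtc
Mcl1, chr3:95658471-95658720, plus strand: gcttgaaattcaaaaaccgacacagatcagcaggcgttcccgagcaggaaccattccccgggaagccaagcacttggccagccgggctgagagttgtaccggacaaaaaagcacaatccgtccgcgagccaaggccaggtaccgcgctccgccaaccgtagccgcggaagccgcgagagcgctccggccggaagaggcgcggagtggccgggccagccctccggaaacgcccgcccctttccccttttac
The Dusp1 window held 3 matches to the cAMP element, 191, 143 and 141 bases before the start, of which the last 2 overlap as a palindrome. Ptgs2 held 1 match to the xenobiotic element, 100 bases before the start. No match lay in the windows of Ier3 and Mcl1. Among 32851 RefSeq windows of this length 6.47% held the cAMP core and 4.1% the xenobiotic core.

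**Figure D2:**
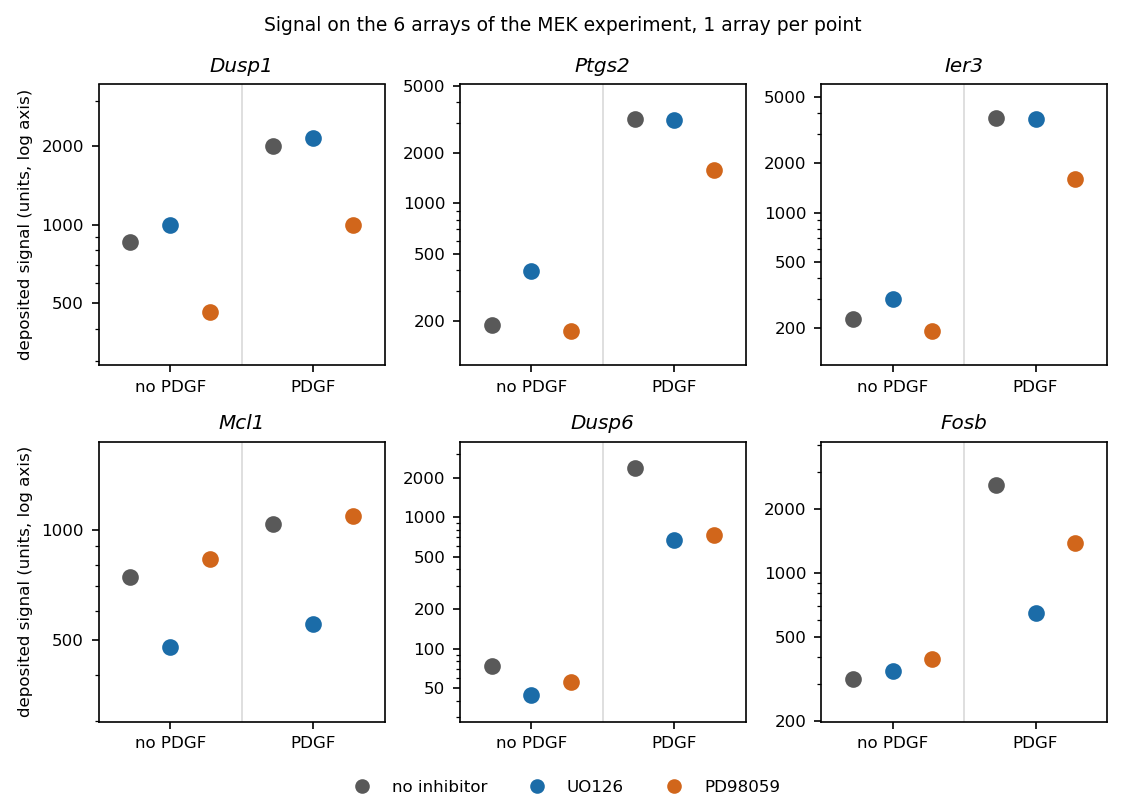
Deposited signal (log axis) of 6 genes on the 6 arrays of the MEK experiment, without PDGF on the left and with PDGF on the right of each panel, 1 array per point. PD98059 is the lowest point of each triplet for Dusp1, Ptgs2 and Ier3, UO126 is the lowest for Mcl1, and both inhibitors lie below PDGF alone for Dusp6 and Fosb.

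Among genes that report or restrain ERK activity the inhibitors gave mixed differences. Of 15 measured, 3 had an unadjusted p under 0.05 and were higher with UO126 (Dusp1, Ier3 and Phlda1) and 0 were lower, beside 2.47% higher and 2.7% lower of all 6366 genes, and the list's median was 0.01 against −0.01 over all genes. Dusp6, the ERK phosphatase that depends on ERK for its transcription, had signals of 44.3 with UO126 and 56 with PD98059, and 675.1 and 725.5 with PDGF, where PDGF alone gave 2348.9. Both inhibitors lay well below PDGF alone, and the difference between them was −0.20 (SE 0.198, interval −0.64 to 0.24). Errfi1, a feedback inhibitor of the EGF receptor, had 2122.1 and 3122.7 with PDGF against 6828.1 with PDGF alone. Its pairs gave 0.06 without and −0.54 with PDGF, so the gap lay in the PDGF pair. The mean difference of Errfi1 was −0.24 (SE 0.182), and its second probe set gave −0.63 (SE 0.285). Phlda1, an early gene whose product restrains growth, had 129 and 83.5, and 1132.9 and 741.3 with PDGF against 2477.4 with PDGF alone, a difference of 0.54 (SE 0.194).

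For the genes of the cascade itself no difference stood out. Of 14 measured cascade genes 0 had an unadjusted p under 0.05 in either direction, beside 2.47% higher and 2.7% lower of all genes. For a list this short 0 is near those shares. Map2k1, which encodes MEK1, was at 1071.2 and 929.6 without and 1194.3 and 697.8 with PDGF, a difference of 0.48 (SE 0.222, interval −0.01 to 0.98). Map2k2, which encodes MEK2, gave 0.26 (SE 0.197). A list of MEK5 and ERK5 (Map2k5 and Mapk7), MEF2 factors and their targets had 0 of 9 in either direction, beside the same shares. Among them Klf4 gave −0.27 (SE 0.168) and Mef2c 0.27 (SE 0.186).

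Immediate early transcription factors were more often lower than higher with UO126. Of 26 measured, 12 were lower in both PDGF states and 1 was higher in both, beside 27.9% and 26.9% of all genes. At an unadjusted p under 0.05, 4 were lower and 0 higher, beside 2.7% and 2.47% of all genes. The median was −0.18 against −0.01 over all genes. Fosb, a partner of Jun in AP-1, had 344.6 with UO126 and 390.2 with PD98059, and 643.5 and 1379 with PDGF, where PDGF alone gave 2609.5. Its pairs differed by −0.14 and −1.07 (mean −0.60, SE 0.254), so the gap lay in the PDGF pair. Id1 and Id2, which block basic helix-loop-helix factors, gave −0.65 (SE 0.206) and −0.55 (SE 0.243). Id1 was at 368.5 against 725.8 without PDGF and 879.8 against 1178.8 with it. Klf10, an early target of TGF-beta named after its values were seen, gave −0.43 (SE 0.164), and −0.62 (SE 0.161) at its second probe set.

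For other early factors the interval of the difference included 0. Fos had 38.7 with UO126 and 56.1 with PD98059, and 1246.1 and 732.3 with PDGF, where PDGF alone gave 1370.2. Its pairs pointed opposite ways, at −0.44 without and 0.74 with PDGF (mean 0.15, SE 0.428), unlike those of Fosb. Egr1 gave −0.31 (SE 0.170) and Fosl1 gave 0.36 (SE 0.257), the latter from pairs of 0.74 and −0.03. Nr4a1, an orphan nuclear receptor, had 8392.9 with UO126 and 7820.3 with PD98059 under PDGF, against 10064 with PDGF alone, a difference of −0.03 (SE 0.263) over both states. Egr2, a zinc finger factor, had 2160.8 and 2375.4 under PDGF against 3308.8. Its pairs pointed opposite ways, 0.42 without and −0.16 with PDGF, a mean of 0.13 (SE 0.205). Junb gave −0.38 (SE 0.260), from pairs of −0.32 and −0.44. Its PDGF response was 2.74 in the MEK experiment and 4.01 in the repeat, which widens the SE. Noct was an exception: its brightest probe set gave −0.45 (SE 0.181) and the next 0.33 (SE 0.177), so its probe sets disagreed.

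PDGF-induced genes were chosen on arrays of the Src experiment and its repeat, at least 2-fold up in both, which gave 67 of 5537 genes (1.21%). In the MEK experiment their median response to PDGF was 1.94 (log2) without inhibitor, 1.36 with UO126 and 1.57 with PD98059. Under PDGF the median change against the PDGF array, which both comparisons share, was −0.32 with UO126 and −0.31 with PD98059, beside 0.02 and 0.01 over all genes. At least 2-fold lower were 12 of the 67 genes with UO126 and 8 with PD98059, beside 2.14% and 2.1% of all genes. Set directly against PD98059, 24 of the 67 were higher and 43 lower with UO126 under PDGF, beside 49.8% higher of all genes, with a median of −0.10; scaling to a common median moved that to 0.01. Without PDGF 41 were higher, beside 49% of all genes, and 26 lower, with a median of 0.07; over the 25 genes induced at least 4-fold that median was −0.07. Over both states 8 were higher and 2 lower at an unadjusted p under 0.05, beside 2.47% and 2.7% of all genes.

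The widest gaps under PDGF lay at the ends of that set. Ier3, Ptgs2 and Sema4b were 1.16, 0.93 and 1.00 higher with UO126, and F3, tissue factor, the starter of coagulation, was 0.81 higher. Under PDGF F3 had 4074.7 with UO126 and 2270.3 with PD98059, where PDGF alone gave 2993.7, so the inhibitor arrays lay on either side of it; over both states the difference was 0.59 (SE 0.174). Zfp36l1, an mRNA decay factor named after its values were seen, had 5751.7 and 3824.1 against 3657.7 with PDGF alone, a difference of 0.56 (SE 0.145) over both states. At the other end Fosb, Stil, Dnajb1 and Pvr were 1.07, 0.90, 0.76 and 0.76 below PD98059. Stil, Pvr and Sema4b were also named for their values.

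**Figure D3:**
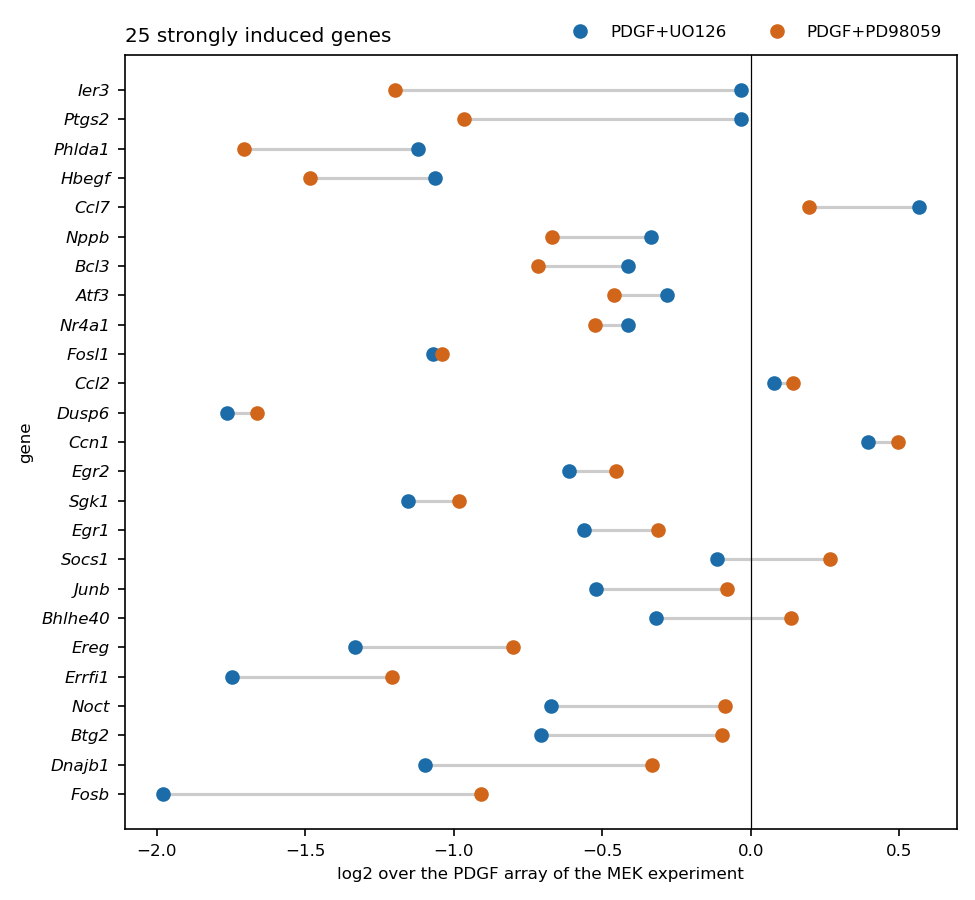
Log2 signal with PDGF and each inhibitor over the PDGF array of the MEK experiment, for the 25 genes at least 4-fold up with PDGF in the Src experiment and its repeat, ordered by the difference between the inhibitors. Both inhibitors lie left of 0 for Dusp6, Errfi1 and Fosb, while for Ier3 and Ptgs2 UO126 lies at −0.03 and PD98059 at −1.20 and −0.96.

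No gene of the AhR battery differed past its interval between the compounds. Of 16 listed genes 14 were on the array and 9 passed the filter on dim probe sets. Of these 9, 0 had an unadjusted p under 0.05 in either direction, beside 2.47% higher and 2.7% lower of all genes. For a list this short 0 is near those shares, so nothing is read from the count. Cyp1b1, a cytochrome of the battery and the brightest cytochrome in it, had 1319.2 with UO126 and 1285.4 with PD98059 against 1078.3 untreated, and 1050.3 and 916.5 against 957.4 with PDGF. The difference was 0.13 (SE 0.187, interval −0.29 to 0.55). Cyp1a1, the classic AhR target, had 91.7 and 95.4 against 12.8 untreated, and 16.3 and 55.1 against 46 with PDGF. Its difference of −0.49 (SE 0.434) is at the low end of the signal range, where the interval ran from −1.46 to 0.48.

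Among the remaining members, Tiparp, which encodes a repressor of AhR, had 359.6 and 322.1 against 157.7 untreated and 996.5 and 1095.9 against 2109.1 with PDGF, a difference of 0.02 (SE 0.250). Nqo1, a quinone reductase, had 826.1 and 1070.7 against 592.8 and, with PDGF, 831.8 and 788.9 against 482.9, so all 4 inhibitor arrays lay above both controls; the difference between the compounds was −0.12 (SE 0.182). Arnt, the partner of AhR, gave 0.04 (SE 0.212), Aldh3a1 0.13 (SE 0.228), Nfe2l2 −0.02 (SE 0.230) and Serpinb2 −0.09 (SE 0.421). Gsta2, a glutathione transferase, gave 0.62 (SE 0.414), from 149.6 against 40.6 without PDGF and 54.1 against 73.7 with it, so its pairs pointed opposite ways. Of the 8 measured members with a RefSeq promoter window 1, Gsta2, held the xenobiotic core in its 250 bases, beside 4.1% of all windows. For a list this short 1 is near that share, so nothing is read from it. Bases further upstream were not searched, so the other members may hold the core there.

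Prostaglandin and inflammatory genes held Ptgs2 and Ier3 among their members. Of 7 prostaglandin genes 5 were higher with UO126 in both states and 0 were lower in both, beside 26.9% and 27.9% of all genes. At an unadjusted p under 0.05, 2 were higher (Ptgs2 and Ptger4), beside 2.47% of all genes, and the median was 0.21 against −0.01 over all genes. Ptger4, a receptor for prostaglandin E2, had 213.8 against 101 and, with PDGF, 810.6 against 617.8, a difference of 0.66 (SE 0.235). Ptges, a prostaglandin E synthase, gave 0.37 (SE 0.255). Of 14 NF-kB targets 2 were higher at that p (Ptgs2 and Ier3) and 0 lower, beside 2.47% and 2.7% of all genes, and the chemokines Ccl2 and Ccl7 gave 0.06 and 0.11.

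Secreted factors and matrix genes moved in both directions. Of 11 growth factors 1 was higher and 1 lower at an unadjusted p under 0.05, beside 2.47% and 2.7% of all genes. Bdnf, a neurotrophin, gave 0.41 (SE 0.138), from 2684.8 against 1895.6 and, with PDGF, 5121.3 against 4033.2. Vegfa, the main angiogenic factor, gave −0.56 (SE 0.213), from 144.4 against 232.4 and 353.8 against 542.9. Among 14 TGF-beta genes Inhba, a subunit of activin, gave 0.49 (SE 0.198), while Smad6, an inhibitor of BMP signalling, gave −0.48 (SE 0.208) and Id1 was the other lower member. Of 16 matrix and protease genes F3 was higher and Col1a2, a collagen chain, lower at −0.23.

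Glucose use and stress genes included some of the brighter differences toward PD98059. Of 16 hypoxia and glycolysis genes 3 were lower with UO126 (Hk2, Ldha and Vegfa) and 0 higher at an unadjusted p under 0.05, beside 2.7% and 2.47% of all genes, with a median of −0.17 against −0.01 over all genes. Hk2, the hexokinase that traps glucose in the cell, had 1312.4 with UO126 and 1955.1 with PD98059, and 1585.8 and 2788.9 with PDGF. The PD98059 arrays lay above their controls (1346.3 and 1962) and the UO126 arrays near or below them, a difference of −0.68 (SE 0.160, adjusted p = 0.833 with limma). Ldha, lactate dehydrogenase A, gave −0.38 (SE 0.124).

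Atf4, the transcription factor of the amino acid and endoplasmic reticulum stress response, had 5882.4 and 7427.8 against 5119 untreated, and 4192.5 and 7022 against 3502.9 with PDGF. Both inhibitors lay above their control and PD98059 lay higher, a difference of −0.63 (SE 0.148, adjusted p = 0.833 with limma). On its list of stress genes 8 of 14 members were lower with UO126 in both states and 1 was higher in both, beside 27.9% and 26.9% of all genes, with a median of −0.10. At an unadjusted p under 0.05 the list had 1 member lower (Atf4) and 0 higher, beside 2.7% and 2.47% of all genes, with Asns, asparagine synthetase, at −0.09, Trib3, a pseudokinase, at −0.09 and Ddit3, a stress factor, at −0.04. Mt1, a metallothionein, gave −0.63 (SE 0.236) and Mt2 −0.24. Of 10 chaperones 3 were higher with UO126 at an unadjusted p under 0.05 and 0 were lower, beside 2.47% and 2.7% of all genes. The 3 were Hspa1b at 0.53 (SE 0.204), Bag3 at 0.50 (SE 0.163) and Hsp90aa1 at 0.41 (SE 0.138). The list did not shift as a whole: its median was 0.01, with 4 members higher and 3 lower in both states. Dnajb1, a member lower in both pairs, gave −0.51 (SE 0.250). For Hspa1b the pairs gave 0.87 without and 0.20 with PDGF, and for Hsp90aa1 0.65 and 0.17, so both gaps lay mostly in the pair without PDGF. The second probe set of Bag3 gave −0.37 (SE 0.181), against the first.

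Of 14 FOXO and insulin pathway genes 2 were lower and 0 higher at an unadjusted p under 0.05, beside 2.7% and 2.47% of all genes, and the other lists of this paragraph are read against the same shares. Irs2, an adaptor of the insulin receptor, gave −1.31 (SE 0.403) at low signals of 33.1 against 117.3 and 36 against 125.3. Ccng2, a cyclin of quiescent cells, gave −0.54 (SE 0.220), from 426.9 against 651.6 and 113.5 against 188.4. Tef, a clock output factor, was the 1 lower member of 12 clock genes at −0.70 (SE 0.177). H1f2, a linker histone, had 7957.8 and 8875.3 against 3803.3 untreated and 7252.8 and 10115 against 3780.3 with PDGF, so both compounds lay above the controls; the difference was −0.44 (SE 0.140). Cell cycle genes had 0 of 20 in either direction, NRF2 antioxidant genes 0 of 11, SRF and actin genes 0 of 16, interferon genes 0 of 7 and housekeeping genes 0 of 9. Ribosome biogenesis genes had 2 of 15 higher (Nop58 and Mybbp1a) and respiratory chain genes 1 of 13 (Cycs), while sterol synthesis had 1 of 17 lower (Mvd) and p53 targets 1 of 10 (Phlda3). For Mybbp1a and Cycs the gap lay mostly in the PDGF pair, at 0.97 and 1.14, against 0.13 and 0.30 without PDGF. The second probe set of Mybbp1a gave −0.13 (SE 0.397), against the first.

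Tubulins, looked at after their values were seen, were among the brightest genes apart. Of 11 alpha and beta tubulin genes 4 were higher with UO126 at an unadjusted p under 0.05 and 0 lower, beside 2.47% and 2.7% of all genes; nothing is read from this count, since the group was chosen on its values. Tuba1a, an alpha tubulin, had 19421 with UO126 and 11314 with PD98059, and 21524 and 15635 with PDGF, beside 22047 untreated and 17374 with PDGF alone. Its difference was 0.52 (SE 0.0998, adjusted p = 0.833 with limma), and 0.27 (SE 0.120) at its second probe set. Tubb6, a beta tubulin, had 2737.1 and 2015.7, and 3826.5 and 2162.7 with PDGF, beside 3534.9 and 3914.6, a difference of 0.61 (SE 0.145). Tubb5 gave 0.46 (SE 0.122) and Tubb3 0.51 (SE 0.151), and the second, dim probe set of Tubb3 gave −0.58 (SE 0.370).

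Of the 6 tubulins with a mean signal over 1000 units, 6 lay below their control in both PDGF states with PD98059 and 4 did with UO126, on the normalised scale. Several of these probe sets are of a kind that can match more than 1 transcript of the family, so the values of single tubulin genes are uncertain. In the Src experiment UO126 over vehicle was −0.27 for Tuba1a, −0.29 for Tubb5 and −0.30 for Tubb6, and −0.09, −0.12 and −0.17 with PDGF.

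**Figure D4:**
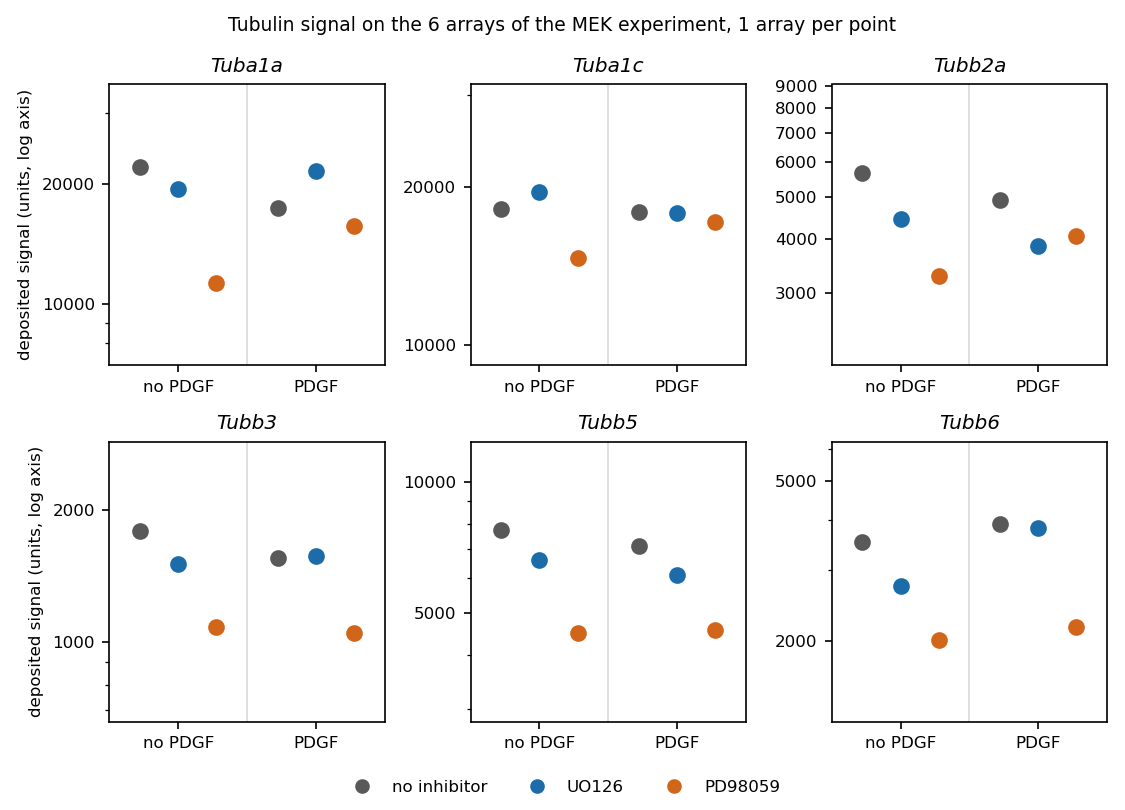
Deposited signal (log axis) of the 6 tubulin genes with a mean signal over 1000 units on the 6 arrays of the MEK experiment, 1 array per point. PD98059 lies below its control in every panel in both PDGF states, and below UO126 in both states in every panel but that of Tubb2a.

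Ranked by the smaller of the 2 pair differences, the leading genes were mostly dim. Degs2, a sphingolipid desaturase, headed the list of those higher with UO126, at 172.4 against 21.5 and, with PDGF, 146 against 40.7. The difference was 1.85 (SE 0.299, adjusted p = 0.480 with limma), and the PD98059 arrays lay far below the controls of 145.6 and 195.4. Xrn1, a 5′ to 3′ RNA exonuclease, gave 1.09 (SE 0.249), again with low PD98059 arrays, at 70.5 and 91.2 against 158.1 and 170. Grb7, an adaptor of receptor kinases, gave 1.35 (SE 0.303), but with high UO126 arrays, at 381.8 and 253 against 183.1 and 81.2. The others of the 10 were Sergef, Tro, H2-Eb1, Krt1, Chaf1a, Dusp1 and H2-Oa, at 1.09 to 1.63.

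The 10 genes lower with UO126 were Pla2g4f, H2-DMb2, Irs2, Abi1, Ccl8, Nptx1, B3galt4, Etv2, Pkp1 and Thrb, at −1.51 to −1.07. Pla2g4f, a phospholipase A2, had 50 against 187.7 and, with PDGF, 80.2 against 276.7, beside 57.6 and 73.5 in the controls, so it was the PD98059 arrays that stood apart. Etv2, an ETS factor, had 20.7 against 65.9 and 16.6 against 67.3, beside 133.7 and 112.3, so both inhibitors lay below the controls. For both genes the lower signals are in the range where an offset of 21.2 units in the log scale compresses the ratio.

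The dependence of the difference on PDGF was tested in a fit with 1 residual degree of freedom, in which the 4 inhibitor arrays are fitted exactly. The spread comes from the PDGF response of the other arrays in the 2 experiments and from limma's pooling over probe sets, so each inhibitor array is assumed to vary like those. There limma called 2 of 8695 probe sets (0.023%), with 225 (2.59%) at an unadjusted p under 0.05. Rap1gap, which switches off the small GTPase Rap1, had 77.7 with UO126 and 461.1 with PD98059 without PDGF, and 445.5 and 69 with PDGF. Rps19, a protein of the small ribosomal subunit, had 3930.5 and 8965.9, and 8195.1 and 4408.6. In each gene the order of the inhibitors thus turned over between the pairs. In the Src experiment UO126 over its control was −0.05 without and −0.46 with PDGF for Rap1gap, where the MEK experiment had −0.25 and 1.24, and −0.10 and −0.07 for Rps19, where it had −0.96 and −0.13. The interactions were 4.64 (SE 0.607) and 2.25 (SE 0.310), with an adjusted p of 0.0133 each with limma; with no filter, or with no variance trend, limma called 0. The other genes at the head of the opposite-sign ranking, Scx, Wdr55, Barx1 and T2 in one direction and Reln, Dnase1l3, Chrne, Abcc3 and Cyp3a11 in the other, did not pass.

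Fibroblast markers were high on all 4 inhibitor arrays. Of 13 fibroblast markers 1, Col1a2, had an unadjusted p under 0.05, and the summed signal of the list was 92376.7 with UO126, 82561 with PD98059, and 81933.4 and 86051.6 with PDGF. The marker lists of epithelial, leukocyte, endothelial, and adipocyte and muscle cells summed to 322.1 to 1401.4 units on each of these arrays, from 3 of 8, 5 of 9, 2 of 6 and 3 of 8 markers that passed the filter. Their part in the differences was not tested.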

How the data were processed

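RNA of 17 arrays was deposited as intensity, 1 positive number per probe set and array on a linear scale. The deposited trimmed mean (2% off each end) was the same on each array of the 9-array table, about 500.3 units. Which software and genome build lie behind these values is not stated in the labels. Signals in the text are deposited values. For log2 differences the 9-array table (12488 probe sets, 66 controls left out) was quantile normalised, the table's 20th percentile (21.2 units) was added before log2, and probe sets in the lowest 30% by mean signal were removed. The fit used limma 3.58.1 in R 4.3.3 (lmFit, eBayes with a trend; Benjamini-Hochberg over 8695 probe sets, threshold 0.05), with terms for PDGF, experiment, SU6656, UO126, PD98059 and PDGF with MEK inhibition (2 residual degrees of freedom). The 8-array table was normalised separately (offset 36.3) and never tested with it. A gene is its probe set with the highest mean, named from the platform annotation where 10855 probe sets had 1 gene. Genes named were those past the threshold, the 10 per direction with the largest smaller pair difference, up to 3 per list, all measured AhR genes, 5 per direction of opposite sign, the 8 most induced, and Map2k1, Map2k2 and Dusp6; all others were chosen after their values were seen. Members and lists were chosen with earlier results of these data known. The scripts were tested on simulated data. The number of arrays limits the precision.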

Additional observations from a re-analysis of the deposited data

Results flagged for a closer look

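For 2 genes the change with PDGF of the difference between UO126 and PD98059 passed limma's threshold, in a fit where the spread comes from other arrays than the 4 inhibitor arrays. For Rap1gap the interaction was 4.64 on the log2 scale (SE 0.607, adjusted p = 0.0133 with limma): the difference was −2.25 without PDGF and 2.39 with it. Its other arrays read 97.5 untreated and 182.1 with PDGF, and 99.7, 318.7 and 326.7 in the repeat. In the Src experiment it read 250.8 with vehicle and 238.6 with UO126, and 269.7 with PDGF and 175.9 with PDGF plus UO126, so UO126 was not above its control with PDGF there. For Rps19 the interaction was 2.25 (SE 0.310, adjusted p = 0.0133 with limma), from −1.32 to 0.92, beside 7467.8 untreated and 8248 with PDGF, and 15989, 13494 and 12190 in the repeat. On the arrays of the Src experiment Rps19 read 15741 and 15356, and 15003 and 15927 with PDGF, so the low value with UO126 alone was not seen there. Each rests on 4 arrays, 1 per condition, and both had 1 probe set that passed the filter.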

How the results depend on the processing

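The count of 0 probe sets for UO126 against PD98059 was also 0 in every alternative run, among them leaving out each of the 9 arrays in turn (lowest and highest value 0) and the 4 inhibitor arrays fitted with the PDGF state as a replicate block (0) or without it (0). The labels give no replicate numbers, and this block is the PDGF state. The PDGF dependence called 7 probe sets after scaling to a common median, 12 on values as deposited, 4 with the lowest 50% left out, and 0 with no filter or no variance trend, where Rap1gap (4.64) and Rps19 (2.25) no longer passed. Without any 1 of the inhibitor arrays it cannot be estimated. No residual degrees of freedom remain without the untreated or PDGF array of the MEK experiment, or without the vehicle or PDGF array of the repeat. Genes 1.5-fold apart in both states numbered 182 with an offset of 1 unit, 36 with the 40th percentile, 194 with no filter and 27 with the lowest 50% left out, and 23 were 2-fold apart. Genes 2-fold apart under these 4 settings numbered 344, 39, 360 and 39 without PDGF, and 358, 43, 396 and 52 with PDGF. The median of PDGF-induced genes with PDGF was 0.012 after scaling to a common median, and without PDGF −0.072 over genes induced at least 4-fold. When an inhibitor array is left out, a gene's difference becomes that of the other pair, and leaving out any other array does not change it. Jund, at 0.32 and not called, thus went to −0.063 without either array of the pair lacking PDGF. It went to 0.71 without either array of the pair with PDGF. Of the values of single named genes 2394 kept their direction and side of the threshold or moved within the spread, 72 moved by more, 2 reversed (Jund) and 4 no longer passed (Rap1gap and Rps19). Signal limits these counts: 103 of the 111 genes apart lie below the median signal.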
